A study of Mus musculus with 13 samples.

Results

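The genes that build ribosomes were followed across 3 treatment groups in the gastrocnemius muscle of obese mice. Members were taken by symbol: rows of the gene table that begin with Polr1, Utp, Nop or Rrp followed by a subunit letter or a number, 31 in all, and 17 further symbols given by name (Fbl, Ncl, Npm1, Dkc1, Nhp2, Gar1, Bop1, Wdr12, Pes1, Rrs1, Nol6, Nol9, Nol10, Nol11, Nob1, Ubtf and Rrn3). This gave 48 of the 21868 genes listed. All 48 were among the 12303 genes with a mean of at least 10 normalized counts, the minimum for testing, and Utp14b had the lowest mean.

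Ribosomal RNA is transcribed by RNA polymerase I (Pol I) in the nucleolus, after the factors Ubtf and Rrn3 have set the polymerase on the ribosomal DNA. Small nucleolar ribonucleoproteins (snoRNPs) then modify the precursor, box C/D particles by methylating riboses and box H/ACA particles by converting uridine to pseudouridine. Assembly factors fold, cleave and carry the small (40S) and the large (60S) subunit to the cytoplasm, and in muscle the supply of new ribosomes is one of the limits on protein synthesis and fibre growth.

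The mice were male C57BL/6N, 7 weeks old on arrival, with 1 week of acclimatization. A diet with 60 kcal% fat was fed for 15 to 17 weeks, after which every group was put on chow and treated for 3 weeks. Vehicle mice (n = 5, numbers 1 to 5) received daily intraperitoneal PBS with placebo. Semaglutide mice (n = 5, numbers 13 to 17) received 30 nM/kg per day of the GLP-1 receptor agonist semaglutide, also with placebo. Semaglutide + ketone ester mice (n = 3, numbers 19, 21 and 22) received the same semaglutide injections. They drank water holding 0.114 g/mL of a ketone ester that yields β-hydroxybutyrate. All groups therefore shared the earlier high-fat diet and the change to chow, and no lean or untreated mice were sequenced. Throughout, the values of single mice are normalized counts given in the order of these numbers, and fold changes are log2 differences of log2(normalized count + 1) from limma, with p-values adjusted by Benjamini-Hochberg over all 12303 genes tested and a threshold of 0.05.

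Between 15319471 and 23498162 reads were counted on genes per mouse. Semaglutide mouse 13 stood apart from its group. On the first principal component of all genes it scored -9.12, near the vehicle mice (-24.5 to -12.8), while the other semaglutide mice scored 31.8 to 52.5. On the same component calculated from the 48 members alone it scored -0.945, against 1.25 to 3.2 in the other semaglutide mice. Results are therefore given with and without mouse 13. Since this mouse was singled out by its expression, the members' own included, p-values without it are conditioned on the outcome and are given as a description. In whole muscle, fewer cells of a type and less RNA per cell cannot be told apart.

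Under semaglutide, 17 of the 48 members were higher than under vehicle and 0 were lower, with a median log2 fold change of 0.33. Over all genes tested, 11.9% were higher and 13.2% were lower, with a median of -0.003. Fold changes were above 0 in 43 members and below 0 in 5, and of those 5 none reached an unadjusted p under 0.05 in limma, nor did edgeR or DESeq2 call any member lower. Without mouse 13 the number higher was 28, against 17.3% of all genes tested in the same fit, and the median was 0.42. It was 11 without vehicle mouse 3 or without semaglutide mouse 15 or 17. In these 3 fits the calls over all genes tested, in either direction, were 2333, 2221 and 2067, against 3084 with all mice.

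When the ketone ester was added to semaglutide, 12 members were lower than under semaglutide alone and 0 were higher, with a median of -0.34. The background was 9.3% of genes lower and 9.09% higher. Of the 7 members with a fold change above 0, 1 (Utp23) had an unadjusted p under 0.05, and edgeR and DESeq2 called none of them higher. Without mouse 13, 28 members were lower (16.2% of all genes tested), with a median of -0.41. The count fell to 6 without semaglutide mouse 15 or 17, to 4 without ketone ester mouse 21, to 2 without mouse 22 and to 2 with only the 2 groups compared in the fit. Calls over all genes tested, in either direction, fell in the same fits as well. They went from 2262 to 1645, 1500, 972, 862 and 751, in that order. Both comparisons use the same semaglutide mice. Between semaglutide + ketone ester mice and vehicle mice limma called 0 of 48 members, beside 0.236% of all genes tested in either direction. With so few calls over all genes, this count is not a result about the members, and a missing call does not show equal levels. The 95% intervals were, for example, -0.17 to 0.24 for Polr1d and -1.26 to 0.48 for Utp14b. The median was 0.01 and turned to -0.05 after rescaling the columns to equal totals. An unadjusted p under 0.05 was reached by 2 members in that comparison, Nop56 (0.23) and Rrs1 (0.45), and edgeR and DESeq2 also called 0, each with 2 at an unadjusted p under 0.05.

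The calls differed in how often they ended when a mouse was left out, in fits where calls over all genes tested also changed. For semaglutide against vehicle, leaving out 1 of the 13 mice at a time ended the call of Polr1b in 11 of 13 fits, of Npm1 in 9, of Nhp2 and Nop58 in 8, of Rrp12 in 6, of Rrp9 in 3 and of Bop1 in 1, and that of no other called member. For semaglutide + ketone ester against semaglutide it ended the call of Ncl in 11, of Rrp36 in 7, of Nop56 and Rrp1b in 6, of Nop14 and Rrp12 in 4, of Nop58 and Rrp9 in 2 and of Bop1, Nol9 and Rrp15 in 1, leaving Nop2.

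**Figure D1:**
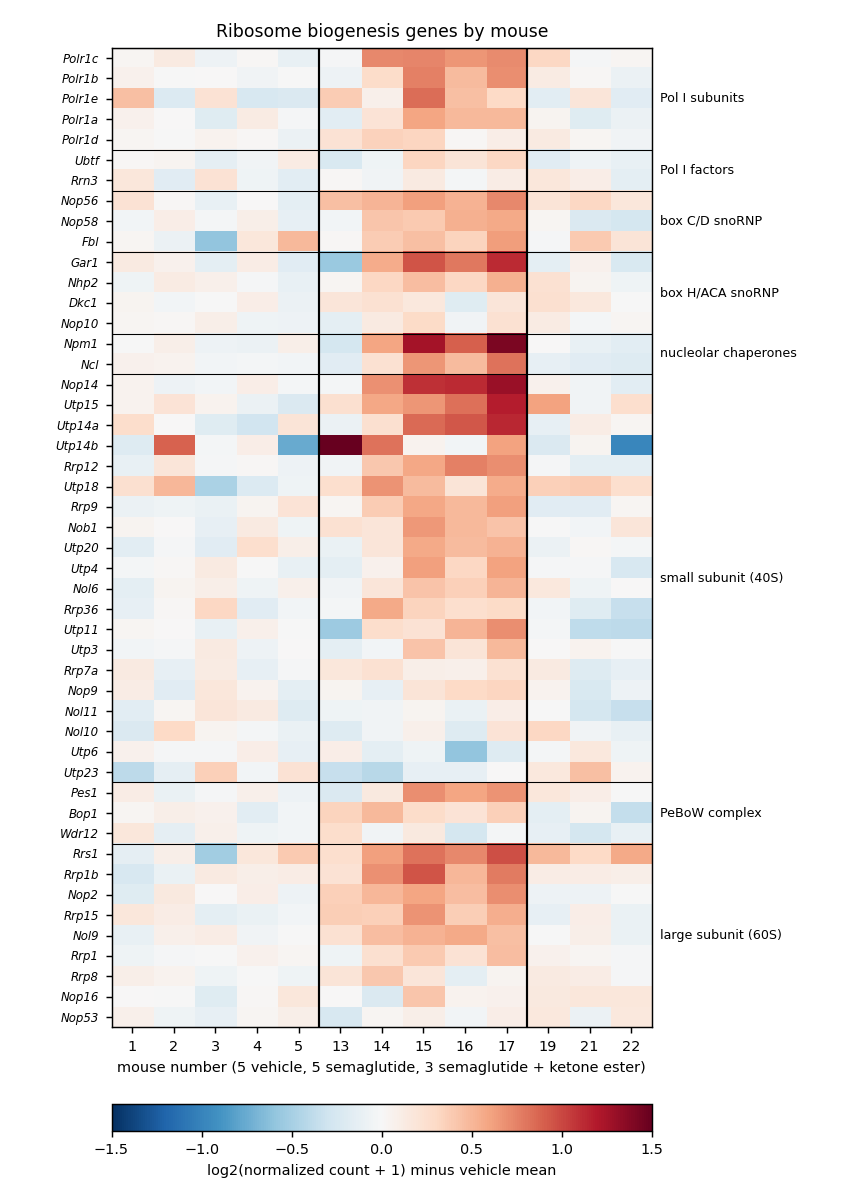
Each row is a member, grouped by role, each column is a mouse, and colour shows log2(normalized count + 1) minus the mean of the 5 vehicle mice. The columns of semaglutide mice 14 to 17 are mostly red, mouse 13 has 14 members above the highest and 12 below the lowest vehicle mouse, and the 3 semaglutide + ketone ester columns stay near 0.

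Averaged over the 48 members, the log2 difference from the vehicle mean was 0.045 in semaglutide mouse 13, 0.273 in mouse 14, 0.467 in mouse 15, 0.32 in mouse 16 and 0.507 in mouse 17. Vehicle mice lay between -0.028 and 0.038 and semaglutide + ketone ester mice between -0.065 and 0.06. Mouse 13 thus sat just above the highest vehicle mouse and within the range of the ketone ester group, while the other semaglutide mice lay above every mouse of both other groups. In mice 14 to 17, between 31 and 37 of the 48 members (64.6% to 77.1%) exceeded the highest vehicle mouse, and 0 to 4 were below the lowest, while over all genes tested 30.2% to 32.4% were above and 29% to 35% below. Mouse 13 had 14 members above (29.2%, all genes 27%) and 12 below (25%, all genes 25.2%), close to the background in both directions. Of the ketone ester mice, mouse 19 had 15 members above and 3 below, mouse 21 had 6 and 11, and mouse 22 had 5 and 14, where all genes gave 20% to 22.8% above and 18% to 24.5% below. Counted as a share of all reads on genes, the members took 0.107% to 0.111% in vehicle mice, 0.115% in mouse 13, 0.143% to 0.181% in the other semaglutide mice and 0.0967% to 0.11% under semaglutide + ketone ester.

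Promoters were read from RefSeq (GRCm38.p6) as the 250 bases before to 50 after each start, and 38 of the 48 members had an entry. The letters searched on both strands were CACGTG (E-box, the site known for the transcription factor Myc), CCGGAAG (ETS), GCGCATGC (NRF1) and GGGCGG (SP/KLF), none of which contains another. An E-box was found in 9 of the 38 members (23.7%), compared with 11.8% of the 9653 tested genes that had a promoter. It was in 1 of the 13 members that were higher under semaglutide, Nop2, and in 8 of the 25 that were not called (Rrn3, Nol11, Pes1, Rrp7a, Utp14b, Utp18, Utp20 and Utp4). ETS letters were in 31.6% of members and 19.9% of tested genes, NRF1 letters in 5.3% and 6.0%, and SP/KLF letters in 71.1% and 69.0%. These are matches of letters, not binding, and no test was run. The genes shown were picked by their call and their E-boxes, so the windows are examples and carry no comparison. The 250 bases before the start are shown, 5′ to 3′ on the gene's strand with E-boxes in capitals, for the called member with an E-box (Nop2, chr6:125131633-125131882, plus strand, E-box starting 60 bases before the start), the uncalled member with a pair of them (Rrn3, chr16:13780449-13780698, plus strand), and 2 strongly changed members without one (Nop56, chr2:130274162-130274411, plus strand, and Nop14, chr5:34660149-34660398, minus strand).
Nop2: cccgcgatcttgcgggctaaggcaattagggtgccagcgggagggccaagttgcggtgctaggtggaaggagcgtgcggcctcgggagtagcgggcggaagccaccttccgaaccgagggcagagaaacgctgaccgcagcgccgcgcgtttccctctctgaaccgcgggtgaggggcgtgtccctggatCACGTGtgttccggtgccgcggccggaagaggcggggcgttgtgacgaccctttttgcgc
Rrn3: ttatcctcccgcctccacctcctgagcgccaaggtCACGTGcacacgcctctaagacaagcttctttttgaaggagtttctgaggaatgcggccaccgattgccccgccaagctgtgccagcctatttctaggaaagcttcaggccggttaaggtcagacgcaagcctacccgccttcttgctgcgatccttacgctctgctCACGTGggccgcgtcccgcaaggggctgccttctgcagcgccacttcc
Nop56: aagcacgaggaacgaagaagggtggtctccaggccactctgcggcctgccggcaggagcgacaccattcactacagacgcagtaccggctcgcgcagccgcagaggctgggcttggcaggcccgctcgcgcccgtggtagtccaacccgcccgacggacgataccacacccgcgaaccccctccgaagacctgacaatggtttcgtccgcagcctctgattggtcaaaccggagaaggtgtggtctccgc
Nop14: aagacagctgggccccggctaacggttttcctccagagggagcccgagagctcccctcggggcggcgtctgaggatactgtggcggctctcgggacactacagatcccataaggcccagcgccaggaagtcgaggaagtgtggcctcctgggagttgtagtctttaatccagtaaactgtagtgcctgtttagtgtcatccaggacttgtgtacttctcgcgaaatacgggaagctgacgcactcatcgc

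Of the 5 Pol I subunits, 2 rose under semaglutide. Polr1c, a subunit that Pol I shares with RNA polymerase III, was counted at 136, 146, 126, 134 and 123 in vehicle mice, 132, 219.8, 221, 211 and 219 in semaglutide mice and 165, 132 and 136 in semaglutide + ketone ester mice. Mouse 13 lay among the vehicle mice, and the other semaglutide mice were above every mouse of the other groups. The log2 fold change against vehicle was 0.56 (SE 0.14, limma adjusted p = 0.014), or 0.71 without mouse 13.

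Polr1b, the second-largest subunit, gave 304, 289, 292, 279 and 289.9 under vehicle, 275, 353, 489.9, 405 and 471 under semaglutide and 316, 294 and 274 with the ketone ester added. It rose by 0.42 (SE 0.14, limma adjusted p = 0.041). For Polr1a, the largest subunit, which carries the active site, the counts were 1069, 1022, 896, 1112 and 1005, then 912, 1171, 1530.0, 1424 and 1430.0, then 1047, 899.9 and 960.2. Here mouse 13 was below 4 of the 5 vehicle mice, and the fold change of 0.32 (SE 0.13) had a limma adjusted p of 0.095 with all mice and of 0.0047 without it (0.44). On all mice, Polr1a was also called by DESeq2 (adjusted p = 0.036), by edgeR (adjusted p = 0.05 as rounded), with sample weights and after rescaling to equal totals.

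Polr1d, the other subunit shared with RNA polymerase III, gave 731, 719, 749, 726 and 674 under vehicle, 835, 914, 902, 730.3 and 772 under semaglutide and 789.5, 732 and 695 in the third group. Polr1e, a subunit that helps in initiation, was the lowest of the 5 per kilobase of exon (13.1 normalized counts per kilobase under vehicle, against 237 for Polr1d) and gave 68.7, 43.3, 58.2, 42.1 and 43.1, then 65.8, 53, 90, 69 and 61.9, then 44.9, 56.8 and 44.5. For both, vehicle and semaglutide mice overlapped, and the fold changes of 0.20 and 0.41 had limma adjusted p = 0.087 and 0.09. Of the 12 alternatives on all 13 mice, 4 called Polr1d and 1 called Polr1e. With the ketone ester added, the 5 subunits differed from semaglutide by -0.46 to -0.17, none with an adjusted p under 0.05 (limma, lowest 0.069). Without mouse 13, Polr1a (-0.51), Polr1b (-0.53) and Polr1c (-0.60) passed the threshold. On all 13 mice, these were each called in 3 of the 12 alternatives, and Polr1d and Polr1e each in 1.

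Neither of the 2 factors that bring Pol I to the ribosomal DNA was called by limma with all mice. Ubtf, the architectural factor of ribosomal DNA, gave 842, 857, 761, 807 and 909 under vehicle, 714, 799, 1040.0, 954 and 1038 under semaglutide and 743, 799.6 and 773 with ketone ester. Rrn3, the initiation factor that growth signals act on, gave 1010.0, 795, 1039, 860.4 and 806, then 904, 864, 988, 876 and 968, then 1006, 958 and 810.0. All 3 groups overlapped for both genes. The log2 fold changes under semaglutide were 0.11 (95% interval -0.13 to 0.35) for Ubtf and 0.04 (-0.18 to 0.25) for Rrn3, with limma adjusted p of 0.50 and 0.83. With the ketone ester against semaglutide, Ubtf was at -0.22 (limma adjusted p = 0.24), and it was called lower with sample weights (-0.32, adjusted p = 0.031), after rescaling to equal totals (-0.46, adjusted p = 0.026) and without mouse 13 (-0.30, adjusted p = 0.045).

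**Figure D2:**
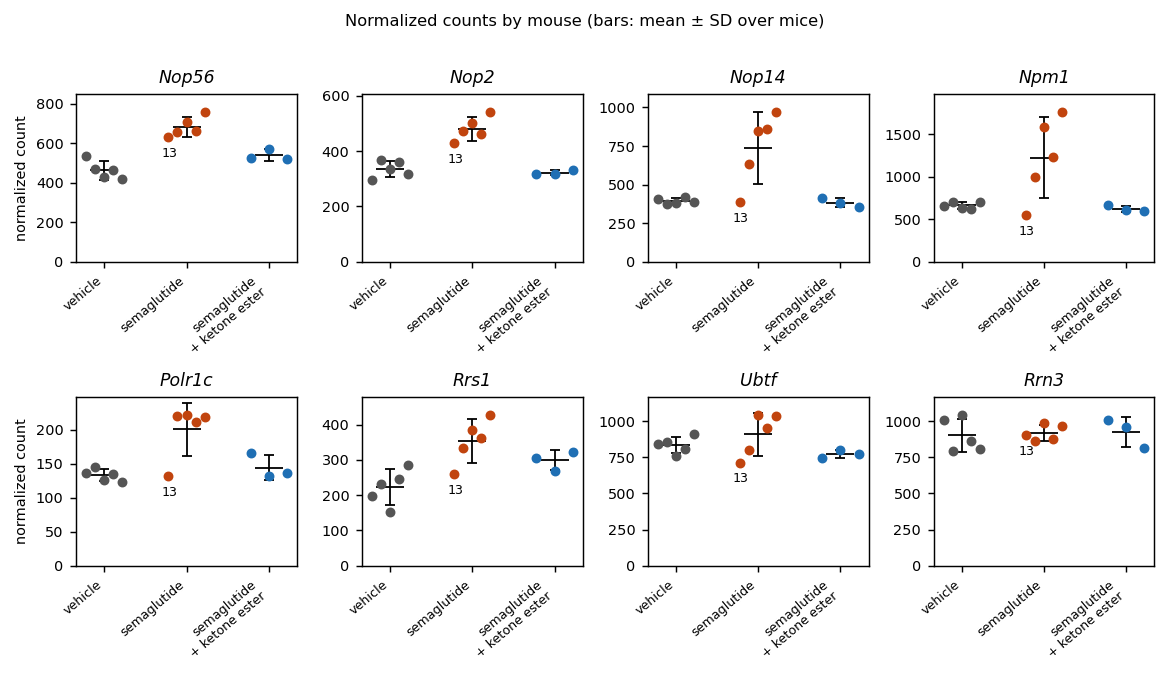
Normalized counts of 8 members in each mouse, with the y axis from 0 and bars for the mean ± SD over 5, 5 and 3 mice and mouse 13 marked. Nop56 and Nop2 were higher in every semaglutide mouse than in any vehicle mouse, Nop14, Npm1 and Polr1c in all but mouse 13, and Rrn3 overlapped between all groups.

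Of the 3 core proteins of box C/D snoRNPs, 2 rose. Nop56, a scaffold of the particle, was at 538, 467, 428, 464 and 418 under vehicle, 632, 657, 705, 661 and 760.1 under semaglutide and 527, 573 and 520.4 under semaglutide + ketone ester. Every semaglutide mouse, mouse 13 included, was above every mouse of the other groups. The change was 0.56 (SE 0.09, limma adjusted p = 0.0011), the lowest p among the members, and with the ketone ester added it fell by 0.34 (SE 0.10, adjusted p = 0.035).

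Nop58, the partner scaffold, gave 251, 277, 252, 275 and 236, then 250.5, 344, 338, 373 and 382, then 262, 221 and 215. It was 0.37 higher under semaglutide (SE 0.12, limma adjusted p = 0.035) and -0.52 with the ketone ester against semaglutide (SE 0.13, adjusted p = 0.02), with mouse 13 within the vehicle range. Fibrillarin (Fbl), the methyltransferase itself, was at 65.2, 60.2, 42.1, 72.1 and 89.7 under vehicle, 64.8, 83.4, 87.8, 80.6 and 99.2 under semaglutide and 63.2, 84.5 and 73.3 in the third group. The groups overlapped, and its fold change of 0.36 (SE 0.18) did not pass the threshold (limma adjusted p = 0.16).

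Of the 4 box H/ACA proteins, Nhp2 alone was called. It gave 219.7, 250.4, 244, 227 and 214 under vehicle, 235, 287, 319, 286 and 334 under semaglutide and 271, 238 and 221 with ketone ester, a rise of 0.33 (SE 0.10, limma adjusted p = 0.035). Gar1 varied most, at 105, 99.9, 86.6, 103 and 85, then 64.8, 141, 186, 166 and 209.6, then 86.2, 100.3 and 81.7. Mouse 13 had the lowest Gar1 of all 13 mice and the other semaglutide mice the highest, so that the fold change was 0.57 with it (SE 0.25, limma adjusted p = 0.12) and 0.85 without it (adjusted p = 0.00039).

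Dyskerin (Dkc1), the pseudouridine synthase, gave 391, 371, 381, 408 and 359.8, then 432, 447, 425, 337 and 435, then 451, 426 and 381. Mouse 16, not mouse 13, was the low one here, and the fold change was 0.11 (SE 0.09, limma adjusted p = 0.39). Nop10 was 0.09 higher (adjusted p = 0.50). None of the 4 was called between semaglutide + ketone ester and semaglutide with all mice (-0.67 for Gar1 to 0.02 for Dkc1, limma adjusted p from 0.13 to 0.93).

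Per kilobase of exon, the nucleolar chaperones had the highest mean levels of the members in semaglutide mice, with 460 normalized counts for Npm1 and 453 for Ncl beside 446 for Nop10. Exon length here was that of all annotated transcripts merged, 10188 bases for Ncl and 1109 for Nop10. The order of genes therefore depends on the annotation as well as on the counts. Under vehicle Nop10 was highest at 416, with 333 for Ncl and Npm1 below Rrp1 (285) and Utp3 (268). Under semaglutide + ketone ester Nop10 was at 427, Ncl at 297 and Npm1 at 234. Nucleophosmin (Npm1) carries histones and ribosomal proteins in the nucleolus. It was at 661, 704, 629, 622 and 703 under vehicle, 554, 998, 1581, 1234 and 1768 under semaglutide and 663, 612 and 596 under semaglutide + ketone ester. Mouse 13 was the lowest of all 13 mice, and each of the others was above all vehicle and ketone ester mice. Npm1 rose by 0.78 (SE 0.25, limma adjusted p = 0.037), and the difference of the ketone ester group from semaglutide was -0.87 (SE 0.28, adjusted p = 0.052). On all 13 mice, 7 of the 12 alternatives called that difference, and 2 ended the call of the rise. Without mouse 13 the values were 1.04 (adjusted p = 0.00033) and -1.13 (adjusted p = 0.00057).

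Nucleolin (Ncl), which binds the ribosomal RNA precursor, gave 3542, 3531, 3286, 3334 and 3289, then 3019, 3964, 5391, 4728 and 5957, then 3119, 3008 and 2961. The 3 ketone ester mice were below every vehicle mouse, as in 1 of 48 members against 5.88% of all genes tested, and the fold change against vehicle was -0.17 (limma adjusted p = 0.84). Against vehicle, Ncl was 0.40 higher under semaglutide (SE 0.15, limma adjusted p = 0.071, and 0.0023 without mouse 13), and with the ketone ester it was 0.57 lower on the log2 scale than under semaglutide (-0.57, SE 0.17, adjusted p = 0.042). On all 13 mice, 5 of the 12 alternatives called Ncl higher under semaglutide, and 2 ended its call with the ketone ester.

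Of the 20 small-subunit factors, 5 rose under semaglutide. Nop14, a component of the small-subunit processome, had the largest fold change of all members. Its counts were 409.7, 373, 384, 422 and 387 under vehicle, 386, 634, 848, 860.4 and 973 under semaglutide and 413, 382 and 353 with the ketone ester. Mouse 13 lay within the vehicle range, and the other semaglutide mice were all above it. Nop14 rose by 0.84 (SE 0.20, limma adjusted p = 0.012) and was 0.88 lower with the ketone ester added (-0.88, SE 0.24, adjusted p = 0.023). Leaving out mouse 13 moved these to 1.05 and -1.10.

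Utp15, of the early subcomplex that joins the precursor while it is transcribed, gave 114, 126, 114, 103 and 94.3, then 129.6, 164, 174, 195 and 249.9, then 168, 106 and 131. Every semaglutide mouse was above every vehicle mouse, while ketone ester mice overlapped both. Its fold change was 0.70 (SE 0.17, limma adjusted p = 0.012), and -0.43 with the ketone ester (adjusted p = 0.14). Rrp12, an export and maturation factor of the pre-40S particle, gave 810.2, 989.6, 859, 882 and 830.2, then 840.4, 1157, 1304, 1471 and 1410.0, then 861, 790.0 and 789.5. With mouse 13 among the vehicle mice, Rrp12 was 0.48 higher (SE 0.14, limma adjusted p = 0.025) and -0.58 with the ketone ester (SE 0.16, adjusted p = 0.025).

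Rrp9, the protein that marks the U3 snoRNP, gave 240.3, 244, 238, 263 and 293, then 259, 331, 382, 357 and 392, then 227, 226 and 259.6. Nob1, the endonuclease that makes the last cut in the small-subunit RNA, gave 339, 329.9, 302, 360.4 and 314, then 386, 373, 514, 460.3 and 444, then 328, 319 and 371. For Nob1 the semaglutide mice were above all others without overlap, and for Rrp9 mouse 13 overlapped. The fold changes under semaglutide were 0.42 for Rrp9 (SE 0.12, limma adjusted p = 0.021) and 0.40 for Nob1 (SE 0.10, adjusted p = 0.014). With the ketone ester they were -0.52 (SE 0.13, adjusted p = 0.02) and -0.35 (SE 0.11, adjusted p = 0.051).

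Rrp36 was called only in the second comparison (0.28 under semaglutide, limma adjusted p = 0.11, and -0.47 with the ketone ester, SE 0.14, adjusted p = 0.037). Its counts were 121, 134, 165, 118 and 128, then 129.6, 196, 167, 157 and 162, then 129, 116 and 103, with each ketone ester mouse below each semaglutide mouse. The margin was narrow, between 128.7 in mouse 19 and 129.6 in mouse 13.

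The other 15 small-subunit factors had fold changes under semaglutide between -0.20 and 0.61, with limma adjusted p from 0.051 to 0.93. Utp14a (0.61), Utp14b (0.60), Utp18 (0.43), Utp20 (0.33), Utp4 (0.29), Nol6 (0.29), Utp11 (0.23), Utp3 (0.19), Rrp7a (0.16) and Nop9 (0.15) were on the positive side with Rrp36. Nol11 (-0.01), Nol10 (-0.03), Utp6 (-0.18) and Utp23 (-0.20) were on the negative side. Without mouse 13, some of the 15 passed the limma threshold. These were Utp14a (0.79, adjusted p = 0.0048), Nol6 (0.37, 0.0076), Utp20 (0.44, 0.0085), Utp11 (0.42, 0.014), Utp4 (0.40, 0.021) and Rrp36 (0.36, 0.029). Utp14a, which works with the helicase that releases the U3 RNA, gave 184 in mouse 13 and 231, 351, 373 and 427 in the other semaglutide mice, against 159.7 to 235 under vehicle. Utp11 was at 258 in mouse 13, below every vehicle mouse (350.2 to 399), and at 439 to 612 in mice 14 to 17, above every vehicle mouse. Utp14b, a retroposed copy of Utp14a that lies within Acsl3, went the other way, with its highest value of all mice, 102, in mouse 13. Utp23 was the single member with every ketone ester mouse (76.9 to 102) above every semaglutide mouse (55.2 to 74.6), where 9.96% of all genes tested showed this, with a fold change of 0.42 and a limma adjusted p of 0.098.

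**Figure D3:**
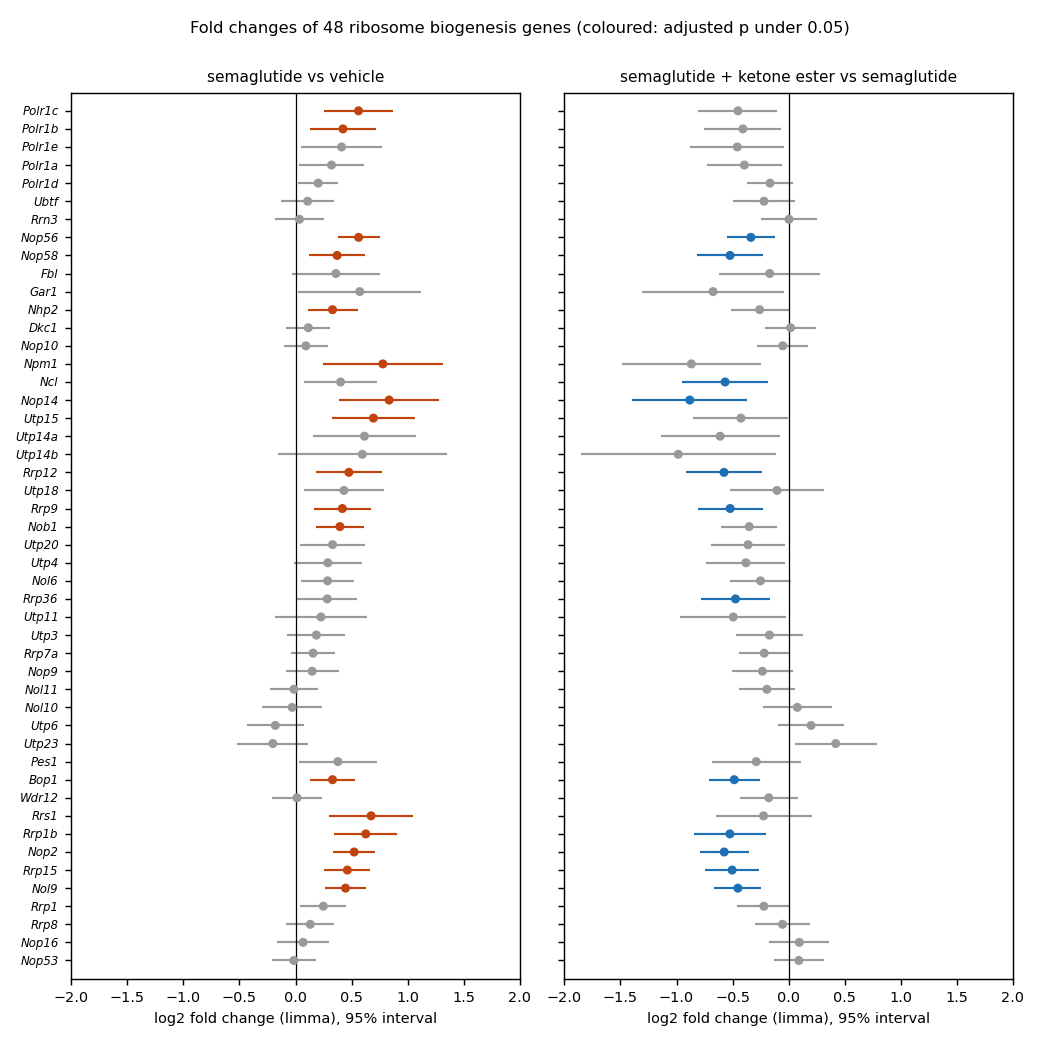
Log2 fold changes of the 48 members from limma (points) with 95% intervals (lines), for semaglutide against vehicle and for semaglutide + ketone ester against semaglutide. Members with an adjusted p under 0.05 are coloured, 17 in the left panel, all above 0, and 12 in the right panel, all below 0.

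Of the 9 large-subunit factors, 5 rose under semaglutide. Nop2, an RNA cytosine methyltransferase, gave 295, 368, 335, 359 and 317 under vehicle, 428, 472, 503, 461 and 543 under semaglutide and 316, 318 and 333 with ketone ester. All semaglutide mice were above all others. Nop2 rose by 0.52 (SE 0.09, limma adjusted p = 0.0018) and was 0.57 lower with the ketone ester (-0.57, SE 0.10, adjusted p = 0.0038). It was the 1 member whose difference between semaglutide + ketone ester and semaglutide passed the threshold under every alternative run.

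Rrp1b, a nucleolar factor of the pre-60S particle, gave 114, 126, 148, 144 and 147, then 158, 218, 262, 192 and 234, then 146, 146 and 144. Rrp15 gave 127, 122, 102, 105 and 109, then 146, 144, 180.0, 146 and 164, then 103, 121 and 105. Nol9, the kinase that prepares the cut spacer for trimming, gave 238, 272, 278, 248 and 256, then 303, 356, 372, 383 and 352, then 256, 275 and 240.3. In all 3 genes every semaglutide mouse was above every vehicle and ketone ester mouse, mouse 13 being the lowest or near the lowest of its group. Under semaglutide the fold changes were 0.63 (SE 0.13, limma adjusted p = 0.0054) for Rrp1b, 0.46 (SE 0.10, adjusted p = 0.0054) for Rrp15 and 0.45 (SE 0.08, adjusted p = 0.0033) for Nol9. With the ketone ester they were -0.52 (SE 0.15, adjusted p = 0.03), -0.50 (SE 0.11, adjusted p = 0.0095) and -0.45 (SE 0.10, adjusted p = 0.0089).

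Rrs1, which places the 5S particle in the large subunit, gave 198, 232, 152, 246 and 286, then 259, 335, 386, 361 and 426, then 306, 268 and 323. Ketone ester mice overlapped both other groups, and semaglutide exceeded vehicle by 0.67 (SE 0.17, limma adjusted p = 0.015). The ketone ester group stood at -0.22 from semaglutide (adjusted p = 0.45) and at 0.45 from vehicle (adjusted p = 0.45). The other large-subunit factors, Rrp1 (0.25), Rrp8 (0.13), Nop16 (0.07) and Nop53 (-0.01), had limma adjusted p of 0.073 to 0.92 under semaglutide. Without mouse 13, Rrp1 alone of these passed the threshold (0.33, limma adjusted p = 0.0048).

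The PeBoW complex (Pes1, Bop1 and Wdr12), which acts in processing of the large-subunit RNA, was split. Bop1 gave 505, 527, 518, 445 and 482 under vehicle, 623, 692, 599, 569 and 633 under semaglutide and 447, 507 and 386 with ketone ester, with no overlap between semaglutide mice and the others. It rose by 0.33 (SE 0.09, limma adjusted p = 0.021) and was -0.49 with the ketone ester against semaglutide (SE 0.10, adjusted p = 0.0092). Pes1 gave 402 in mouse 13 and 516 to 759.8 in the other semaglutide mice against 436 to 505 under vehicle, a fold change of 0.38 (limma adjusted p = 0.10) that was 0.53 (adjusted p = 0.0042) without mouse 13. Wdr12 was not called, with a fold change of 0.01 (95% interval -0.21 to 0.24).

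By non-overlap of single mice, 8 members (Bop1, Nob1, Nol9, Nop2, Nop56, Rrp15, Rrp1b and Utp15) were higher in every semaglutide mouse than in every vehicle mouse, compared with 7.22% of all genes tested. Likewise, 8 members (the same but with Rrp36 in place of Utp15) were lower in every semaglutide + ketone ester mouse than in every semaglutide mouse, compared with 10.2% of all genes. By the criterion of the study (one-way analysis of variance, p under 0.05 without adjustment, and a ratio of at least 1.5 between the highest and the lowest group mean), 10 of the 48 were altered, against 16.1% of all genes tested. These were Gar1, Ncl, Nop14, Npm1, Polr1c, Rrp12, Rrp1b, Rrs1, Utp14a and Utp15. Nop56, Nop2 and Nol9, the members with the lowest limma p-values for semaglutide against vehicle, were outside it because their highest mean was 1.37 to 1.495 times the lowest.

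Other genes of the pathway were counted from lists set down by role. Over all genes tested, 11.9% were higher and 13.2% lower under semaglutide, and 9.3% were lower with the ketone ester than with semaglutide alone. Of 46 further small-subunit factors 23 were higher under semaglutide and 0 lower, with a median log2 fold change of 0.31, and 16 were lower with the ketone ester than with semaglutide alone. Wdr43 (0.84) and Tsr1 (0.74) had the largest rises of this list. Of 55 further large-subunit factors 20 were higher and 10 were lower in the second comparison, with the nucleolar GTPase Gnl3 (0.99, SE 0.21, limma adjusted p = 0.0069), the helicase Ddx27 (0.89) and the methyltransferase Ftsj3 (0.86) ahead. Of 13 genes of the exosome, which trims the precursors, 4 were higher and 5 were lower in the second comparison, led by its nuclease Dis3 (0.80 and -0.80).

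The current names of 3 more Pol I subunits did not occur among the symbols. Under their older symbols, Cd3eap was higher (0.88, SE 0.22, limma adjusted p = 0.013) while Twistnb (-0.02) and Znrd1 (0.06) were not called. Of all 14 Pol I genes outside the members 3 were higher, Cd3eap (0.88), Taf1d (0.84) and Polr2e (0.33), while Taf1d alone was lower with the ketone ester (-0.85, SE 0.17, limma adjusted p = 0.0061). Taf1d belongs to the selectivity factor that recruits Pol I, and its other subunits Taf1a (0.23), Taf1b (0.18) and Taf1c (-0.03) were not called. Of 12 tested factors that assemble snoRNPs none was higher by limma with all mice, and Coil was lower (-0.50, limma adjusted p = 0.045), whereas without mouse 13 there were 4 higher and 2 lower. RNA polymerase III and its factors were mixed, with 6 of 22 higher, Polr3k lower (-0.84) and a median of 0.12. Without mouse 13 the number higher in the lists was 28 of 46 small-subunit factors, 34 of 55 large-subunit factors, 6 of 13 exosome genes, 3 of 14 Pol I genes and 9 of 22 genes of RNA polymerase III, of which 4 were lower. Lower with the ketone ester in the same fit were 25, 32, 6, 2 and 8. Over all genes tested in that fit, 17.3% were higher under semaglutide and 16.2% lower with the ketone ester. With all mice the shares were 11.9% and 9.3%, and 13.2% were lower under semaglutide.

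Among 14 tested regulators of ribosomal RNA synthesis, Myc, the transcription factor known to activate ribosome biogenesis genes, had the largest fold change. Its counts were 112, 114, 78, 86.5 and 150 under vehicle, 167, 179, 294, 289 and 287 under semaglutide and 107, 74.9 and 66.1 with the ketone ester. Every semaglutide mouse was above every mouse of the other groups, mouse 13 being the lowest of the 5. Myc rose by 1.16 (SE 0.22, limma adjusted p = 0.004) and was -1.53 with the ketone ester against semaglutide (SE 0.26, adjusted p = 0.0033). Its antagonists Mxd1 (0.53) and Mnt (0.53) were also higher and the demethylase Kdm2b was lower (-0.82), while Mtor (0.17, limma adjusted p = 0.38) and Rps6kb1 (0.03) were not called. In all, 3 of the 14 regulators were higher under semaglutide and 1 was lower (11.9% and 13.2% of all genes tested). Without mouse 13 there were 6 and 2, with 17.3% of all genes higher. With the ketone ester against semaglutide, 4 were lower and 0 higher (9.3% and 9.09% of all genes tested). The largest of these differences were in Myc, Mxi1 (-0.547, limma adjusted p = 0.026) and Max (-0.385, adjusted p = 0.042).

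The assembly factors can be set beside the proteins of the finished particle. Of 79 cytosolic ribosomal protein genes, 74 were higher under semaglutide (11.9% of all genes tested), with a median log2 fold change of 0.70. In mouse 13 their mean difference from vehicle was 0.599, between the 0.552 of mouse 16 and the 0.784 to 0.812 of the others, whereas the 48 members averaged 0.045 in that mouse. Under semaglutide + ketone ester the ribosomal protein genes were at 0.215, 0.15 and 0.156, above the highest vehicle mouse (0.062), while the members were at 0.06, 0.01 and -0.065. Whether the 2 lists differ was not tested.

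**Figure D4:**
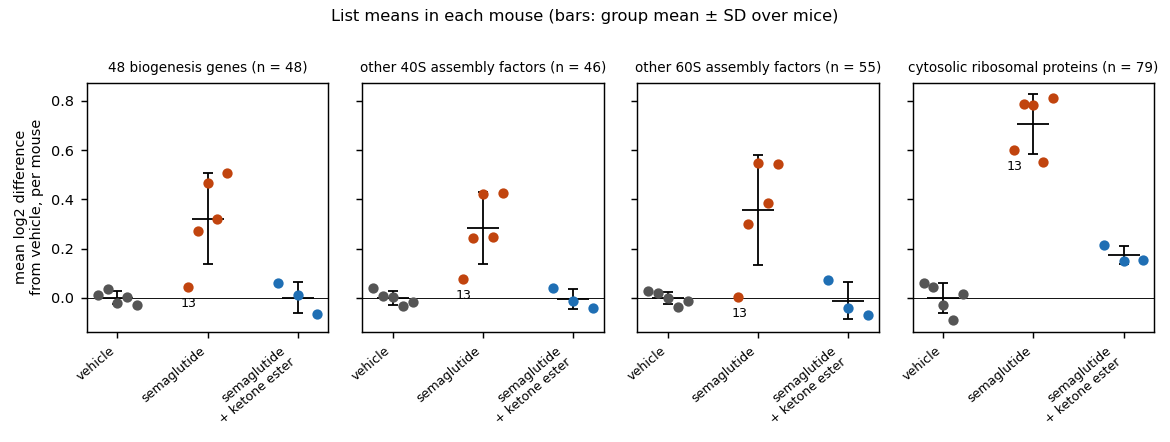
Mean log2 difference from the vehicle mean in each mouse for the 48 members, further small-subunit and large-subunit factors, and cytosolic ribosomal protein genes, with bars for the mean ± SD over 5, 5 and 3 mice. Mouse 13 lies near 0 in the 3 lists of assembly genes (0.004 to 0.078) and at 0.599 in the ribosomal protein list.

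Markers of some cell types also differed between the groups. Over all genes tested, 13.2% were lower and 11.9% higher under semaglutide, and 9.09% were higher with the ketone ester than with semaglutide alone. Fibroblast markers were lower under semaglutide in 5 of 6 (median -1.49) and higher with the ketone ester in 4 of 6, with summed counts of 5407 to 12117 under vehicle, 4834 to 6521 under semaglutide and 6994 to 11443 in the third group, and none of the 6 was at 0 in any mouse. Smooth muscle and pericyte markers were lower under semaglutide in 4 of 5 and higher with the ketone ester in 1 of 5, with sums of 6663 to 8804, 3991 to 5773 and 6578 to 7426. Myofibre markers were present in every mouse at 2023292 to 4353272 normalized counts in sum, and 2 of 8 were lower under semaglutide and 4 of 8 higher with the ketone ester. Satellite cell and myoblast markers were higher under semaglutide in 1 of 6, and of 8 markers of proliferating cells 3 could be tested, 1 of them higher. With the ketone ester against semaglutide, 1 of 6 endothelial markers was higher. In lists this short, counts of 1 or 2 cannot be told from the shares of all genes. No endothelial, immune, adipocyte or Schwann cell marker was called under semaglutide, although the summed adipocyte markers ranged from 46 to 6114 among semaglutide mice (332 to 2217 under vehicle), and at most 1 of 5 adipocyte, 1 of 7 immune and 3 of 8 proliferation markers were at 0 in a mouse. The part of these cell types in the results on the members was not tested. After every column had been scaled to the same total, the median of all genes tested moved to 0.17 for semaglutide against vehicle and to -0.23 for semaglutide + ketone ester against semaglutide, and the medians of the members to 0.50 and -0.58, so that relative to all genes the members differed by about the same amount as before.

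Counting could blur a few members. In the GENCODE M21 annotation, which may not be the one used for counting, 11 members share a stretch of at least 200 bases at 95% identity or more with another gene, as a copy or by overlap. Npm1 (on chromosome 11 from 33152287 to 33163206) has 4 processed pseudogenes of that kind, Nop56 (chromosome 2, 130274430 to 130279313) 3 and Pes1 2, none of them in the deposited table, so how their reads were assigned is unknown. Wdr12 has the most such matches, 6, of which 4 are genes of the deposited table. The longest are with Vmn1r88 (1377 bases, means of 3.56, 2.98 and 3.23 in the 3 groups) and the processed pseudogene Gm4879 (1272 bases, outside the deposited table). Exons also overlap those of a gene on the opposite strand, for 29.9% of the exon bases of Nop9 (with Cideb, near 0 in all groups), 12.5% of Rrp7a (with Serhl, at means of 278, 162 and 301 in the 3 groups), 11.5% of Utp14a (with 9530027J09Rik), 11.5% of Utp23 (with Gm34678) and 10.0% of Rrp8 (with Ilk). None of these 5 was called by limma with all mice, while Utp14a met the criterion of the study. Whether counting used strand is not stated in the sources used here. Utp14b shares 244 exon bases with Acsl3 on the same strand, where strand cannot separate reads. Acsl3 had means of 424, 442 and 404 in the 3 groups, so some reads counted for Utp14b may be its own or those of Acsl3.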

How the data were processed

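RNA from gastrocnemius muscle of 13 mice was sequenced by the authors as stranded, poly(A)-selected libraries with paired reads of 59 bases. The deposited table holds normalized counts, a signal scaled by size factors, for 21868 genes in 13 columns, 1 per mouse. The submitters' processing notes name DRAGEN, DESeq2 and the build mm10. The counting program, the annotation and the use of strand are not given in the sources used here. Every value was a whole multiple of what 1 read was worth in its column (tolerance 0.02 reads), so whole reads were recovered for 100% of values, giving 15319471 to 23498162 reads per mouse (floor 3 reads, counting error only).

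From these values, log2(normalized count + 1) of the 12303 genes with a mean of at least 10 was fitted with limma (version 3.58.1, R 4.3.3) over the 3 groups, with Benjamini-Hochberg adjustment and a threshold of 0.05. edgeR (version 4.0.16, quasi-likelihood) and DESeq2 (version 1.42.0) on recovered reads, other pseudocounts, filters and scalings, sample weights and leaving out each mouse were alternatives. The fits were tested on simulated data. Each animal is 1 sample, and the labels give no batch. Positions came from GENCODE M21 and promoters from RefSeq (GRCm38.p6), with copies found by BLAST (version 2.17.0). Levels per kilobase were divided by the merged exons of all transcripts annotated for a gene. The members and lists were chosen with earlier results of these data known. All 48 members were named, with values of single mice for those called in a comparison and for the Pol I subunits, Ubtf, Rrn3, Fbl, Dkc1, Ncl and Npm1 in any case. Of each other list, at most the 3 called genes with the largest fold change in a comparison were named. The single-mouse values of Gar1, Pes1, Utp11, Utp14a, Utp14b and Utp23, and the genes Twistnb, Znrd1, Taf1a, Taf1b, Taf1c, Mnt, Mtor and Rps6kb1, were chosen after their values were seen.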

Additional observations from a re-analysis of the deposited data

Results flagged for a closer look

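In 96 checks of the 48 members in the 2 groups of 5 mice, 2 single mice lay further from their group than Dixon's 95% critical value allows. Chance flags about 1 in 20 groups. Polr1c in semaglutide mouse 13 was 132 normalized counts against 211 to 221 in the other semaglutide mice, a gap of 0.885 of the range. Dkc1 in semaglutide mouse 16 was 337 normalized counts against 425 to 447 in the others, a gap of 0.801 of the range.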

How the results depend on the processing

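Of the 17 members higher under semaglutide, 13 kept the call in every alternative on all 13 mice, 10 when any single mouse was left out and 10 in all of these. Of the 12 members lower with the ketone ester than with semaglutide alone, 2 kept it in every alternative on all mice and 1, Nop2, in all. With the columns rescaled to equal totals, 36 members were higher under semaglutide and 37 lower with the ketone ester, with medians of 0.50 and -0.58. With sample weights the counts were 31 and 28, with DESeq2 26 and 20, with edgeR 25 and 14, and with only the 2 groups compared in the fit 2 members were lower with the ketone ester. Calls over all genes tested, in either direction, changed as well. For the 2 comparisons they were 3084 and 2262 in the main fit, 4191 and 4198 after rescaling and 4847 and 4279 with sample weights. They were 3577 and 2935 with DESeq2, 3311 and 2557 with edgeR and 2509 and 751 with only the 2 groups compared. Split by direction, DESeq2 called 1848 genes higher and 1729 lower under semaglutide, and 1580 lower and 1355 higher with the ketone ester. With edgeR these were 1769, 1542, 1355 and 1202. Calls after rescaling and with sample weights were not split by direction. Rescaling left the median gene at 0.17 and -0.235, on the members' side of 0. The 36 and 37 members called after it therefore lack a background in their own direction. Leaving out 1 mouse gave 11 to 28 members higher under semaglutide, 28 without semaglutide mouse 13 and 11 without vehicle mouse 3 or semaglutide mouse 15 or 17. It gave 2 to 28 lower with the ketone ester, 28 without mouse 13, 6 without semaglutide mouse 15 or 17, 8 without ketone ester mouse 19, 4 without mouse 21 and 2 without mouse 22. In the same fits, calls over all genes tested in either direction ranged from 2067 to 4447 and from 862 to 3954 for the 2 comparisons. By the criterion of the study, 3 to 15 members were altered when 1 mouse was left out, against 10 with all mice. The share of all genes altered was not counted in those fits, so this range is not a result about the members.

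The sign of values near 0 moved. Rrn3 under semaglutide lay between -0.008 and 0.089 when 1 mouse was left out, and with the ketone ester against semaglutide it was -0.234 after rescaling to equal totals, -0.033 with sample weights and between -0.061 and 0.095 when 1 mouse was left out. Dkc1 in the latter comparison was -0.219 after rescaling, -0.017 with sample weights and between -0.056 and 0.085 when 1 mouse was left out. The cause of these changes was not tested. No paired analysis was possible because the groups share no mouse number.

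The groups are small, with 3 mice in the ketone ester group, and in each mouse 1 library was sequenced, so that the spread covers animals and library preparation together. Utp14b, the member with the lowest mean, had the largest standard errors.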
